A study of Rattus norvegicus with 6 samples.

Results

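The S100 genes encode small calcium-binding proteins, and 9 of them were followed here across rat cortical progenitor cells with and without corticosterone: S100a1, S100a4, S100a6, S100a8, S100a9, S100a10, S100a11, S100a13 and S100b. Members were taken as every probe set whose symbol in the platform annotation was one of these names, which gave 1 probe set for each of the 9 genes, of 14217 genes with a probe set of a single symbol and 31099 probe sets in all. The family was chosen on earlier results of the corticosterone contrast, so the values of its members in that contrast are a description and carry no test. Neuronal progenitor cells came from the cerebral cortex of rat embryos at E15.5 and were kept on fibronectin with 20 ng/ml bFGF, a growth factor that keeps progenitors dividing. The vehicle group received DMSO and the corticosterone group 1 µM corticosterone, both for 48 h, so that all 6 arrays share the growth factor and the culture surface. Each group had 3 Affymetrix arrays, and each corticosterone sample had a vehicle sample as its mate, which made 3 couples. Whether the couples were separate cultures or litters is not given in the sources used here, so p-values measure only the spread between these samples, which may be technical.

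S100 proteins carry a pair of EF-hand loops per chain, mostly work as dimers, and on binding calcium expose a surface that grips a target protein. S100a10 is the exception, since it no longer needs calcium and is held in a complex with annexin A2 at the plasma membrane. In the brain S100b is made mainly by astrocytes and their precursors and is used as a glial marker, S100a6 and S100a4 occur in astrocytes, in some progenitors and in connective tissue cells, and the S100a8 and S100a9 pair belongs to neutrophils and monocytes. These are bulk cultures, in which fewer cells of a type and less RNA per cell cannot be told apart.

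The deposited signals are MAS5 intensities on a linear scale. The background signal was set at 22.8, the 95th percentile of the bacterial control probe sets, and log2 values are log2(signal + 28.6). All 6 arrays were scaled to the same trimmed mean, their median signals lay between 108.5 and 134.4, and the 3′ to 5′ ratio of Actb, a sign of RNA integrity, between 1.55 and 2.12. Of the progenitor markers, Sox2 gave 7528 to 9935 and Nes 2613 to 3635, while the mature astrocyte marker Gfap lay between 41.6 and 176. Of the 9910 genes tested, 19.5% passed an adjusted p of 0.05 for treatment in limma, 11.7% higher and 7.77% lower with corticosterone. The median log2 fold change over all genes tested was −0.002. Centring each array on its median instead moved that median to −0.11, and genes that were higher then made up 31.4% of those called, against 60.1%. Values below are relative to that small shift.

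RefSeq promoter windows of 300 bases (build GRCr8) were found for 6 of the 9 members. Those of the 4 members with the largest changes that had one are shown to set the genes side by side, with TATAA and GGGCGG in capitals. S100a4 lies at chr2:178388279-178388578 (plus strand), S100a6 at chr2:178398287-178398586 (plus strand), S100a11 at chr2:181874882-181875181 (plus strand) and S100b at chr20:12381032-12381331 (minus strand).
S100a4: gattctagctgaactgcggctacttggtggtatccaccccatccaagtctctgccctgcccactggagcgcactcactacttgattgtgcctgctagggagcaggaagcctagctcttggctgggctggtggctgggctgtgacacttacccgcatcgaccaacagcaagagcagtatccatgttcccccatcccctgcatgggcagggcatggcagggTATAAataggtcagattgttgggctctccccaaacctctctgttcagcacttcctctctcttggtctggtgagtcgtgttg
S100a6: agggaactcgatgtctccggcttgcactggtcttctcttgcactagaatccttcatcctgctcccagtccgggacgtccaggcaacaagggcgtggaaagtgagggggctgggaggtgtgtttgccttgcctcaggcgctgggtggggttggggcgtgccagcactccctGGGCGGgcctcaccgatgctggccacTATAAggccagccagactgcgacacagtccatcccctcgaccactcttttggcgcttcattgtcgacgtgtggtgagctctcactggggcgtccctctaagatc
S100a11: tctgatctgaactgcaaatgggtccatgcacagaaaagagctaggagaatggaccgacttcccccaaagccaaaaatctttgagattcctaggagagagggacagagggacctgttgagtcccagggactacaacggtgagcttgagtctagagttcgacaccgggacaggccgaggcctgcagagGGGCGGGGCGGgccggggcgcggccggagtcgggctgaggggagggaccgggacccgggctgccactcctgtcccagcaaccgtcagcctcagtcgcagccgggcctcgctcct
S100b: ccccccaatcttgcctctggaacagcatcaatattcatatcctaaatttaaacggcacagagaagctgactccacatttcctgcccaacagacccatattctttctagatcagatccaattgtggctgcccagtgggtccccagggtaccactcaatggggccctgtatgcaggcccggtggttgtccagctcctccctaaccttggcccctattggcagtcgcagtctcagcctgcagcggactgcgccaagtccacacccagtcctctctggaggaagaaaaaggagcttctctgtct
The S100a4 window holds a TATAA 31 bases before the annotated start, and the S100a6 window one 54 bases before it. The S100a11 window has no TATAA and instead holds a pair of overlapping GGGCGG words, 64 and 59 bases before the start, in a sequence of 63.0% G and C. S100a6 holds 1 GGGCGG, 80 bases before the start, and S100b holds neither word. Searched on both strands, TATAA occurs in 26.2% and GGGCGG in 33.1% of the 33469 promoter windows of the same length. The glucocorticoid receptor words ACANNNTGT (6.86% of all windows) and AGAACA (20.7%), the AP-1 word TGANTCA (7.33%) and the CArG box (1.64%) had no match in any of the 6 windows, which says only that these letters are not there.

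Over the 6 arrays, 7 of the 9 passed the filter on low signals, which dropped the dimmest 40% of all probe sets, and S100a8 and S100a9 did not. The fit gave 6 of the 7 a call for higher signal with corticosterone, none a call for lower signal, and S100a13 no call, beside 11.7% of all genes called higher. In 5 of the 7, every corticosterone array lay above every vehicle array, which was so for 14.8% of all genes. Both counts come from the contrast on which the family was chosen, and S100a6 passed the filter only through its corticosterone arrays. The order of the changes was S100a11, S100a4, S100a6, S100b, S100a10, S100a1 and S100a13, and the SEs of neighbours overlapped for S100a6 and S100b, and for S100a1 and S100a13. The place of S100a6 depends on the pseudocount, since at 100 its log2 fold change was 1.27, below that of S100b and below 1.44 for S100a10. At that pseudocount S100a11 gave 3.12 and S100a4 2.12.

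**Figure D1:**
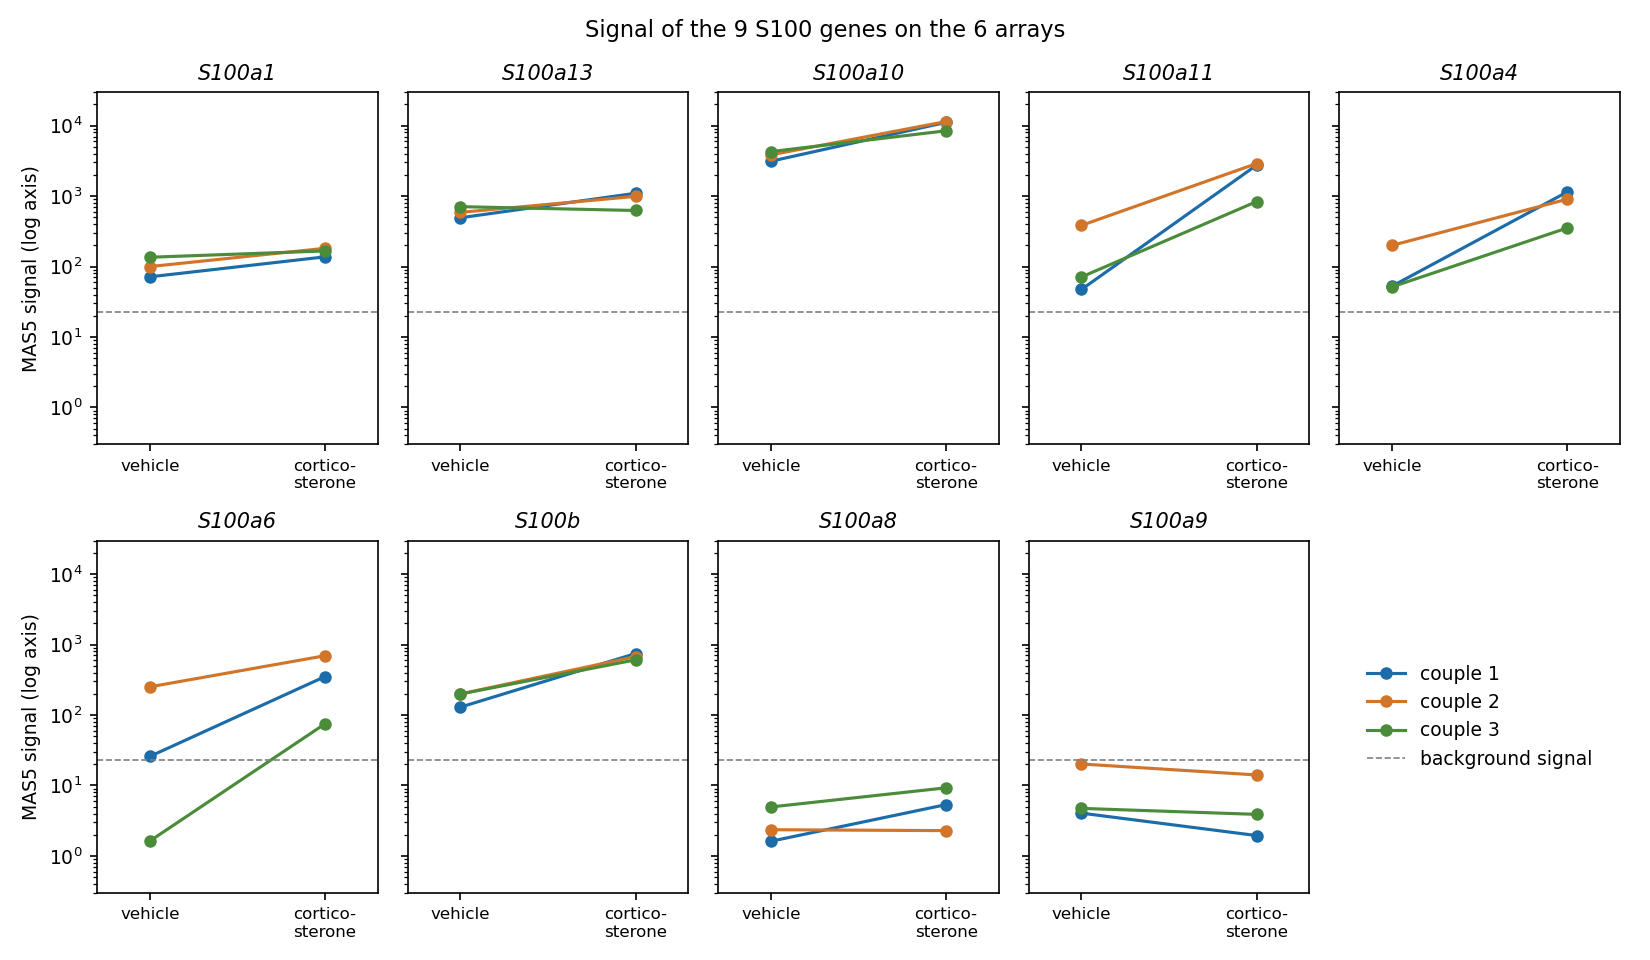
MAS5 signal (log axis) of the 9 S100 genes on each array, with vehicle and corticosterone of a couple joined by a line and the background signal of 22.8 dashed. S100a11 and S100a4 climb from under 400 to as much as 2896 and 1144, the S100a10 groups lie apart, and S100a8 and S100a9 never exceed the background.

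S100a10, the annexin A2 light chain that carries annexin A2 and several ion channels to the cell surface, gave vehicle signals of 3121, 3844 and 4276 in couples 1, 2 and 3, the order used for every gene here, and corticosterone signals of 11132, 11424 and 8447. The groups were far apart and the arrays within each agreed to within 1.37-fold. The corticosterone signal was 3.57, 2.97 and 1.98 times that of the vehicle array of its couple. The log2 fold change was 1.46 ± 0.12 (SE, n = 3 couples), which ranked 94 among the 9910 genes.

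S100a11, a membrane-associated S100 that binds annexin A1, showed vehicle signals of 47.2, 383 and 71.0, against 2753, 2896 and 837 with corticosterone. The groups did not overlap, and vehicle couple 2 stood above the other vehicle arrays. Within couples the ratio was 58.3, 7.55 and 11.8, and the log2 fold change of 3.71 ± 0.33 ranked 2 among all genes tested. RefSeq lists 7 further S100a11 copies in the rat, 5 of them pseudogenes, and 1 S100a10 pseudogene. Signal from such near-identical copies cannot be told from that of the named gene here.

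S100a4, which binds non-muscle myosin and is found in motile cells and fibroblasts, had vehicle signals of 52.6, 199.5 and 51.4 and corticosterone signals of 1144, 903 and 353. Again the groups did not overlap and vehicle couple 2 was the highest of its group. The ratios were 21.7, 4.53 and 6.86, and the log2 fold change was 2.71 ± 0.27, rank 9.

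S100a6, or calcyclin, which binds the ubiquitin-pathway protein Cacybp and marks some neural progenitors and astrocytes, gave 25.8, 251 and 1.63 with vehicle and 351, 694 and 75.0 with corticosterone. The groups overlapped, because vehicle couple 2 exceeded corticosterone couple 3, yet corticosterone was higher in each of the 3 couples. In couple 3 the vehicle array was below background, so the ratio there is at least 3.29-fold, taken against the background signal. The ratio was 13.6 in couple 1, where the vehicle array was barely above the background of 22.8, and 2.76 in couple 2. The log2 fold change was 1.98 ± 0.24. On its vehicle arrays alone S100a6 would have been under the signal filter, so it was tested only because of its corticosterone arrays. Without the couple as a term S100a6 had no call.

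S100b, the glial member, had vehicle signals of 129, 199 and 198 and corticosterone signals of 746, 676 and 607. Both groups were tight, with a range of 1.54-fold among vehicle and 1.23-fold among corticosterone arrays, and they lay wholly apart. The ratios were 5.77, 3.40 and 3.06, and the log2 fold change was 1.80 ± 0.15, rank 51.

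S100a1, known from muscle, where it acts on the ryanodine receptor and the calcium pump, gave 71.4, 99.8 and 135 with vehicle and 137, 181 and 166 with corticosterone. The groups touched without overlapping. The log2 fold change was 0.56 ± 0.17, and its call was lost in several settings, among them without couple 1 and without couple 2. S100a13, which takes part in the export of Fgf1 and interleukin 1 alpha without a signal peptide, gave 492, 587 and 708 with vehicle and 1096, 991 and 624 with corticosterone. Its groups overlapped, with couple 3 lower with corticosterone than with vehicle, and the log2 fold change was 0.55 ± 0.18 with no call. Without couple 3 it had one.

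S100a8 and S100a9, the calprotectin subunits, never passed the background signal. S100a8 read 1.61, 2.35 and 4.95 with vehicle and 5.35, 2.29 and 9.27 with corticosterone. S100a9 read 4.05, 20.2 and 4.73 with vehicle and 1.95, 14.1 and 3.89 with corticosterone. No order or fold is drawn from signals that low. Of the 7 neutrophil markers listed, 3 had a probe set, and their summed signal lay between 20.0 and 63.4 with vehicle and between 35.6 and 62.7 with corticosterone.

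**Figure D2:**
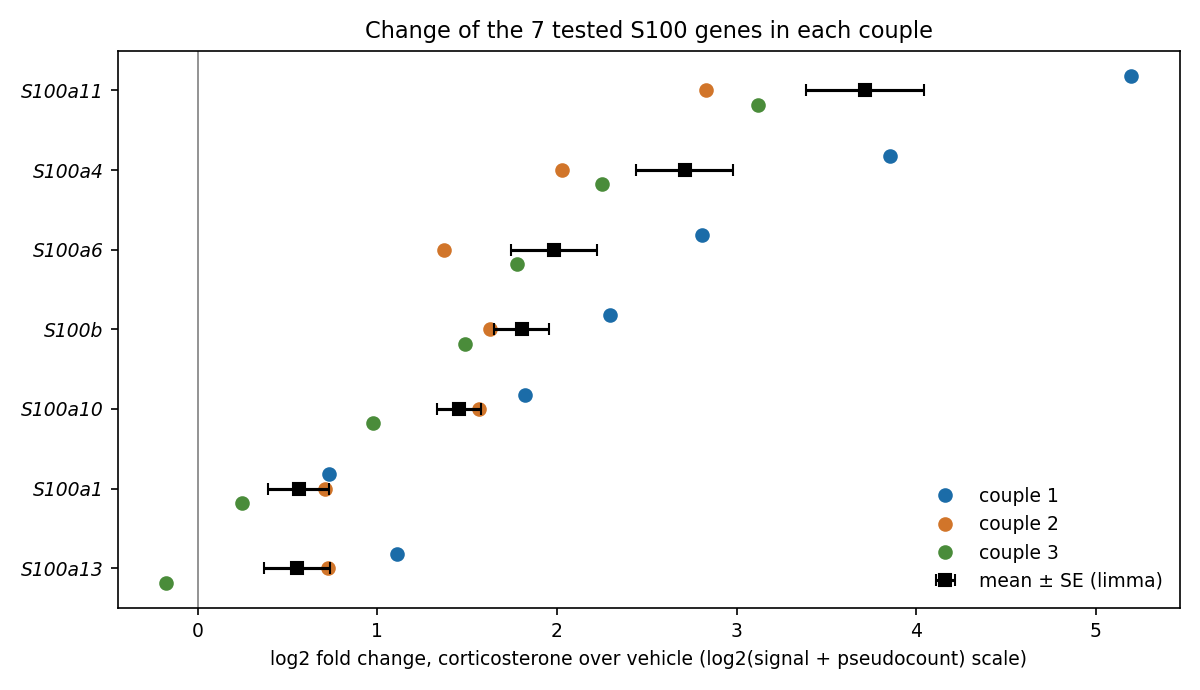
Log2 fold change of the 7 tested S100 genes, with a circle for each couple and a black square with an SE bar for the mean of the 3 couples. Couple 1 (blue) lies from 0.73 in S100a1 to 5.20 in S100a11, the S100a6 value of couple 3 depends on the pseudocount because its vehicle array was below background, and the single value below 0 is couple 3 of S100a13 at −0.17.

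The size of the change differed between couples. Couple 1 had the largest change in 6 of the 7 tested members, S100a1, S100a4, S100a10, S100a11, S100a13 and S100b, with log2 fold changes of 5.20 in S100a11, 3.85 in S100a4 and 2.29 in S100b. Of all genes tested 36.1% had their highest signed change in couple 1, which for a gene that fell is its smallest fall. Of the 242 genes called higher by at least 1 on the log2 scale 71.9% did. The smallest change was in couple 3 for S100a1, S100a10, S100a13 and S100b and in couple 2 for S100a4, S100a6 and S100a11. For S100a6 couples 1 and 3 have no order, because its vehicle signal in couple 3 was below background. With 1 array per treatment in each couple these differences have no test.

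Differences between couples that both arrays of a couple share do have a test. The couple term is orthogonal to the treatment contrast on which the family was chosen. Both tests use the residual variance of the same fit, however, so the F test is not independent of that choice. A family chosen for strong treatment calls can lean towards small residuals and larger F values. By limma's F test of the couple term, 3 of the 7 members passed, S100a6 at an adjusted p of 0.000426, S100a11 at 0.0218 and S100a4 at 0.0372, and the other 4 had adjusted p-values from 0.253 to 0.794. Among all genes tested 15.1% passed. S100a6 entered this test only through its corticosterone arrays, and its vehicle signal in couple 3 was below background. Averaged over both treatments, the log2 level of S100a6 was 7.17, 8.81 and 5.80 in couples 1, 2 and 3, and its F value ranked 45. S100a11 stood at 8.84, 10.10 and 8.20, and S100a4 at 8.27, 8.85 and 7.45. In these averages couple 2 was highest and couple 3 lowest in all 3 genes, while S100a10 and S100b differed between couples by at most 0.20. The order did not hold within each treatment. With vehicle, S100a11 was lowest in couple 1 (47.2, against 71.0 in couple 3). With corticosterone, S100a4 was highest in couple 1 (1144, against 903 in couple 2). These calls rest partly on single couples: without couple 2 the test called 0 of 6 members by limma, with 1 at an unadjusted p under 0.05 (S100a4), and S100a6 was then below the signal filter. Without couple 3 it called S100a6 alone, at 0.00499, and without the intensity trend in eBayes 0 of 7, with S100a6 and S100a11 at an unadjusted p under 0.05.

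Some markers of fibroblasts, meninges and pericytes, the collagens and Lum, were highest in the same couple 2. The summed signal of this list, 13 of 13 genes with a probe set, came to 486, 1759 and 543 with vehicle and to 1105, 3211 and 717 with corticosterone. Col3a1, a fibrillar collagen of connective tissue, read 40.8, 577 and 93.7 with vehicle and 94.1, 928 and 61.9 with corticosterone. Lum, a collagen-binding proteoglycan, read 136 and 143 on the vehicle and corticosterone arrays of couple 2 and at most 2.66 on the other 4 arrays. By limma's F test of the couple term 3 of the 5 tested markers passed, beside 15.1% of all genes, and Acta2 did not. The 3 were Col1a1, Col1a2 and Col3a1, with adjusted p-values of 0.000651, 0.000118 and 0.000113. For treatment Col1a2 and Acta2 were the 2 of the 5 tested markers that rose, beside 11.7% of all genes called higher. Other defining markers were dim: Dcn did not exceed 34.5, Ogn 52.4 and Pdgfrb 32.4 on any array. The part of these cells in the couple differences of S100a4, S100a6 and S100a11 was not tested.

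**Figure D3:**
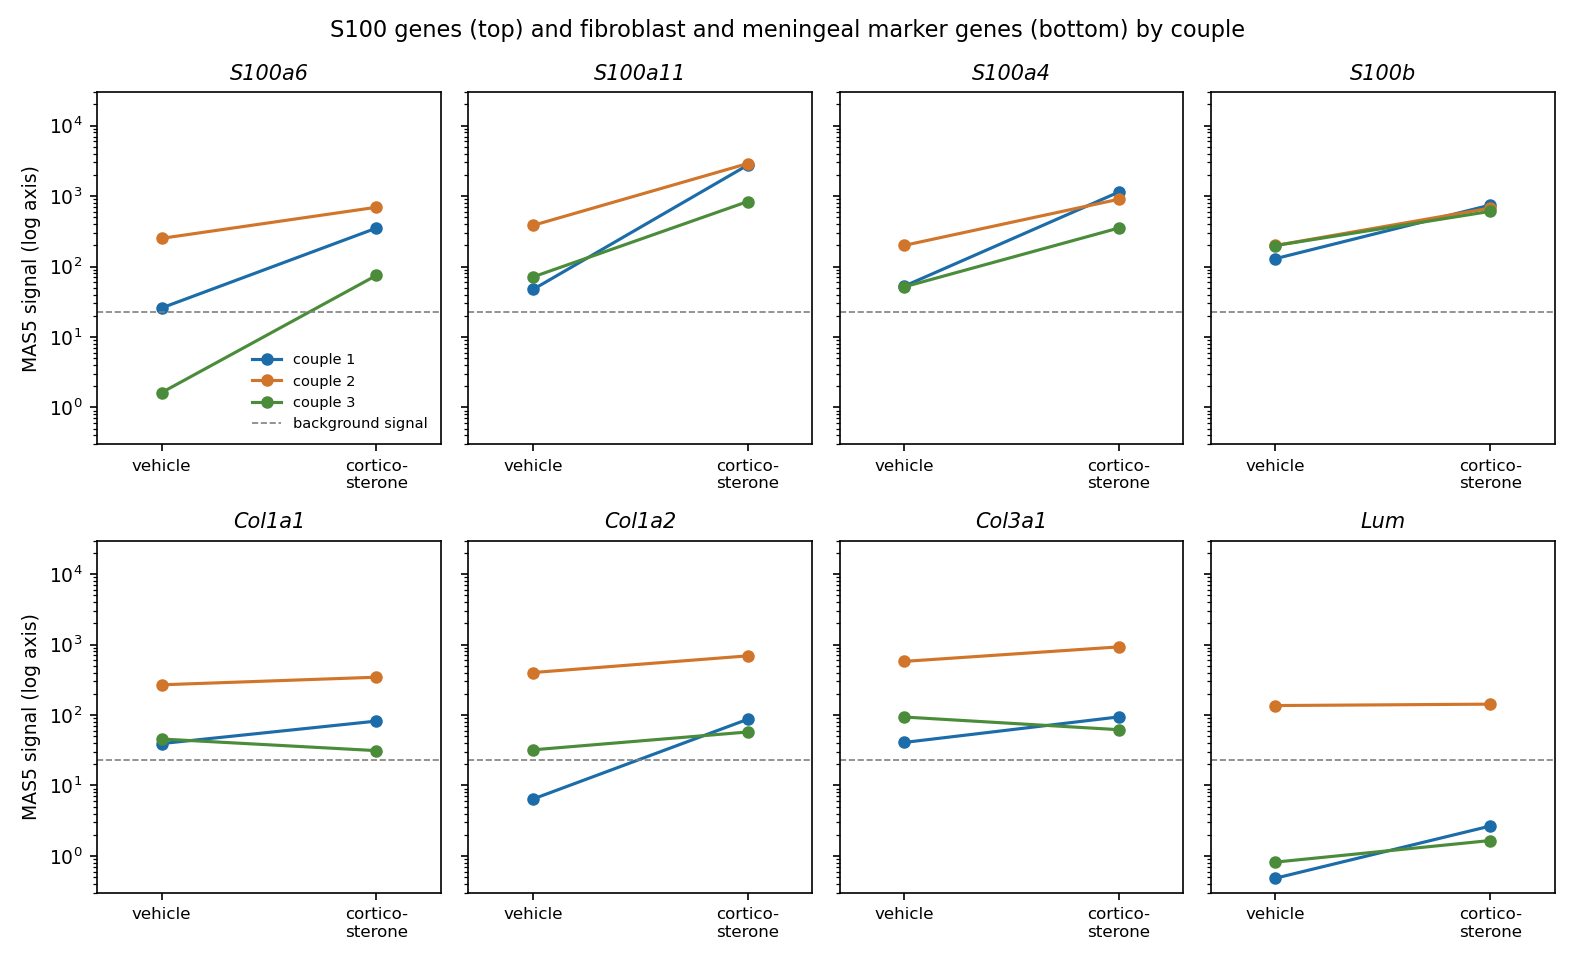
MAS5 signal (log axis) by couple for S100a6, S100a11, S100a4 and S100b (top) and the connective tissue genes Col1a1, Col1a2, Col3a1 and Lum (bottom), with the background signal dashed. Couple 2 (orange) is the highest couple in the collagens and Lum on both treatments and in S100a6, whereas the couples of S100b lie close together.

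Microglial and astrocyte markers were also set beside the S100 genes. Of all genes tested 11.7% were called higher and 7.77% lower, which is the share to set beside each count here. The 13 microglia and macrophage markers summed to between 451 and 542 with vehicle and between 614 and 912 with corticosterone, of which 1 of 4 tested, Cd14, rose (1.09 ± 0.20), while Itgam stayed under 8 on every array. The 9 astrocyte markers with a probe set summed to between 17667 and 23867 with vehicle and between 31689 and 37297 with corticosterone, and 3 of 5 tested rose. Among them were Gja1, the astrocyte gap junction protein (0.96), and Slc1a3, a glutamate transporter of radial glia and astrocytes (0.49), beside Aldoc, which the list shares with the S100 partners. The other 2 tested astrocyte markers did not pass, Gfap at 0.58 and another at −0.14, and 4 were under the filter. Of 4 oligodendrocyte lineage markers tested 0 rose and 1 fell, and of 6 neuronal markers 0 rose and 1 fell. Of 11 progenitor markers tested 3 rose and 0 fell. Endothelial markers summed to at most 213 on any array. The part of these cell types in the S100b values was not tested.

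The RefSeq gene order on chromosome 2 places S100a1, S100a13, S100a14, S100a16, S100a3, S100a4, S100a5, S100a6, S100a7a, S100a8 and S100a9 in a row, with S100a11 and S100a10 next to each other elsewhere on it and S100b on chromosome 20. Genes that passed the filter and genes that did not lay side by side in the row. S100a3, which lies next to S100a4, read 15.3, 60.2 and 46.5 with vehicle and 68.7, 31.8 and 63.5 with corticosterone, and S100a5, between S100a4 and S100a6, did not exceed 16.5 on any array. S100a16, the sole other family gene that passed the filter, gave 785, 756 and 1387 with vehicle and 977, 1219 and 1348 with corticosterone. Its groups overlapped, and the log2 fold change of 0.31 ± 0.12 did not pass (adjusted p = 0.095, limma). The couple term of S100a16 did pass (adjusted p = 0.0247, limma F test). Couple 3 was its highest on both treatments, unlike in S100a4, S100a6 and S100a11. The other 6 S100 genes on the platform (S100a3, S100a5, S100a7l2, S100a14, S100g and S100vp) were under the filter. Just outside the row, Snapin, a synaptic vesicle protein gene, changed by 0.24 (adjusted p = 0.0465, limma) and Ilf2 by −0.18 (adjusted p = 0.101), and Tchh near S100a11 by 0.35 (adjusted p = 0.327).

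Genes for proteins that S100 proteins bind moved unequally. Of 48 listed partners, 46 had a probe set and 36 were tested, of which 13 rose, 4 fell and 19 did not pass, beside 11.7% of all genes called higher and 7.77% lower. The median log2 fold change of the 36 was 0.10, against −0.002 over all genes. Centring arrays on their median gave 9 higher and 5 lower, when 828 of all 9910 genes were called higher and 1811 lower. Without the couple as a term 5 were called, all higher, beside 3% of all genes called. Without couple 2 it was 8 higher and 1 lower, beside 8.03% of all genes called.

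The annexins had the largest median change of the 8 partner groups, 2.32, with 4 of 5 rising. Anxa2, the heavy chain that S100a10 binds, went from 91.1, 206 and 229 with vehicle to 1668, 1580 and 597 with corticosterone. The groups were apart and couple 3 was the lowest of the corticosterone arrays, with a log2 fold change of 2.63 ± 0.33 (adjusted p = 0.000353, limma). Anxa1, the partner of S100a11, went from 45.8, 232 and 61.2 to 739, 1092 and 223. The Anxa1 groups overlapped, its log2 fold change was 2.32 ± 0.26 (adjusted p = 0.000204), and its couple term passed (adjusted p = 0.00943) with couple 2 highest, as in S100a11. Without the couple as a term Anxa1 did not pass (adjusted p = 0.0898). Anxa5, which binds phosphatidylserine, rose by 2.43 and Anxa11, a partner of S100a6, by 1.38, while Anxa6, also bound by S100a6, changed by 0.14 ± 0.06 (adjusted p = 0.164).

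The plasminogen system, which the S100a10 and annexin A2 complex gathers at the cell surface, had 3 genes listed, of which Plau and Plat were tested. Plau, the urokinase activator, read 15.4, 21.8 and 15.4 with vehicle, all below background, and 350, 428 and 139 with corticosterone. Plau passed the signal filter through its corticosterone arrays, so its change is given as a bound, at least 12.1-fold higher, the geometric mean of the corticosterone signals over the background (adjusted p = 4.45e-05, limma). Plat, tissue plasminogen activator, rose by 0.45 ± 0.09. The urokinase receptor gene Plaur was under the filter, at 6.76, 5.39 and 2.66 with vehicle and 64.8, 79.8 and 3.14 with corticosterone.

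Aldoc, a glycolytic enzyme of astrocytes that S100 proteins stimulate, rose by 1.60, and the scaffold Iqgap1, bound by S100b, by 0.68. Cacybp, the S100a6 partner, fell by 0.31 on the log2 scale. It read 7043, 5874 and 6889 with vehicle and 4930, 5052 and 5932 with corticosterone. Ppfibp1, the S100a4-binding liprin, fell by 0.43. Asic1, an acid-sensing channel that binds S100a10, fell by 0.51, and nucleolin (Ncl) by 0.20. Cacybp lost its call without couple 1 (adjusted p = 0.0589) and without couple 2 (0.0522), Asic1 and Ncl when any one couple was left out (0.103 to 0.161 and 0.0542 to 0.219), and 2 other tested Asic1 probe sets did not pass. Myh9, the myosin heavy chain that S100a4 binds, rose by 0.32 but did not pass without couple 2 (adjusted p = 0.151) or couple 3 (0.0783), nor did Plat without couple 2 (0.084). Sugt1 and Stk38 changed by −0.05 and −0.03 (adjusted p = 0.673 and 0.864). Gfap, whose assembly S100b modulates, changed by 0.58 ± 0.24 (adjusted p = 0.134, limma), with 0.35, 1.24 and 0.15 in couples 1, 2 and 3. It passed the signal filter only through its corticosterone arrays. Mapt changed by −0.47 ± 0.15 (adjusted p = 0.0576). Of 5 surface receptor genes, 2 were tested and both rose, Bsg, a receptor of the S100a8 and S100a9 pair, by 0.27 ± 0.06 and Fgfr1, which S100b can bind, by 0.28 ± 0.06 (adjusted p = 0.0132 and 0.0112, limma). Neither passed without couple 2 (0.104 and 0.0676) or with arrays centred on their medians (0.101 and 0.105), nor Bsg without couple 1 (0.0609) or Fgfr1 without couple 3 (0.0532). Another tested Fgfr1 probe set, at 0.23, did not pass (adjusted p = 0.0993, limma). Ager, at most 63.8 on any array, and Tlr4, at most 34.0, were under the filter.

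Of 57 calcium-binding EF-hand genes outside the S100 family, 50 had a probe set and 36 were tested, with 15 higher, 2 lower and 19 not passing, beside 11.7% of all genes called higher and 7.77% lower. Their median log2 fold change was 0.17, against −0.002 over all genes. Sparc, a collagen-binding matrix protein, read 352, 933 and 448 with vehicle and 3145, 4788 and 1711 with corticosterone. Its groups lay apart, its log2 fold change was 2.42 ± 0.16 (adjusted p = 1.32e-05, limma), and its couple term passed (adjusted p = 0.00509). Efhd1, a mitochondrial calcium sensor, rose by 1.97, the actin bundler Pls3 by 1.04, Rcn3 of the endoplasmic reticulum by 1.02, the calcium buffer Calb1 by 0.90, Cib1 by 0.72, Sparcl1 by 0.69 and Eps15 by 0.56. Calb1, at 20.8, 103 and 59.1 with vehicle, passed the signal filter only through its corticosterone arrays (80.8, 280 and 82.1). The 2 that fell were the neuronal calcium sensors Kcnip3, by 0.84, and Ncald, by 0.44. Without couple 1 neither passed (adjusted p = 0.0897 and 0.328), nor did Calb1 (0.054), and Kcnip3 also missed without couple 2 (0.0931) and Ncald without couple 3 (0.0628). Another tested Ncald probe set, at −0.13, did not pass (adjusted p = 0.614, limma), nor did another of Eps15, at 0.30 (0.0899). Calmodulin, measured by Calm2, read 14422 to 15975 with vehicle and 15800 to 16612 with corticosterone (0.10 ± 0.05, adjusted p = 0.249), and turned to −0.01 when arrays were centred on their medians. Centring on the array medians gave 10 higher and 4 lower, when 828 of all 9910 genes were called higher and 1811 lower. Without the couple as a term 5 were called (3% of all genes), without couple 1 it was 10 (11.6%), and without couple 2 also 10 (8.03%).

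**Figure D4:**
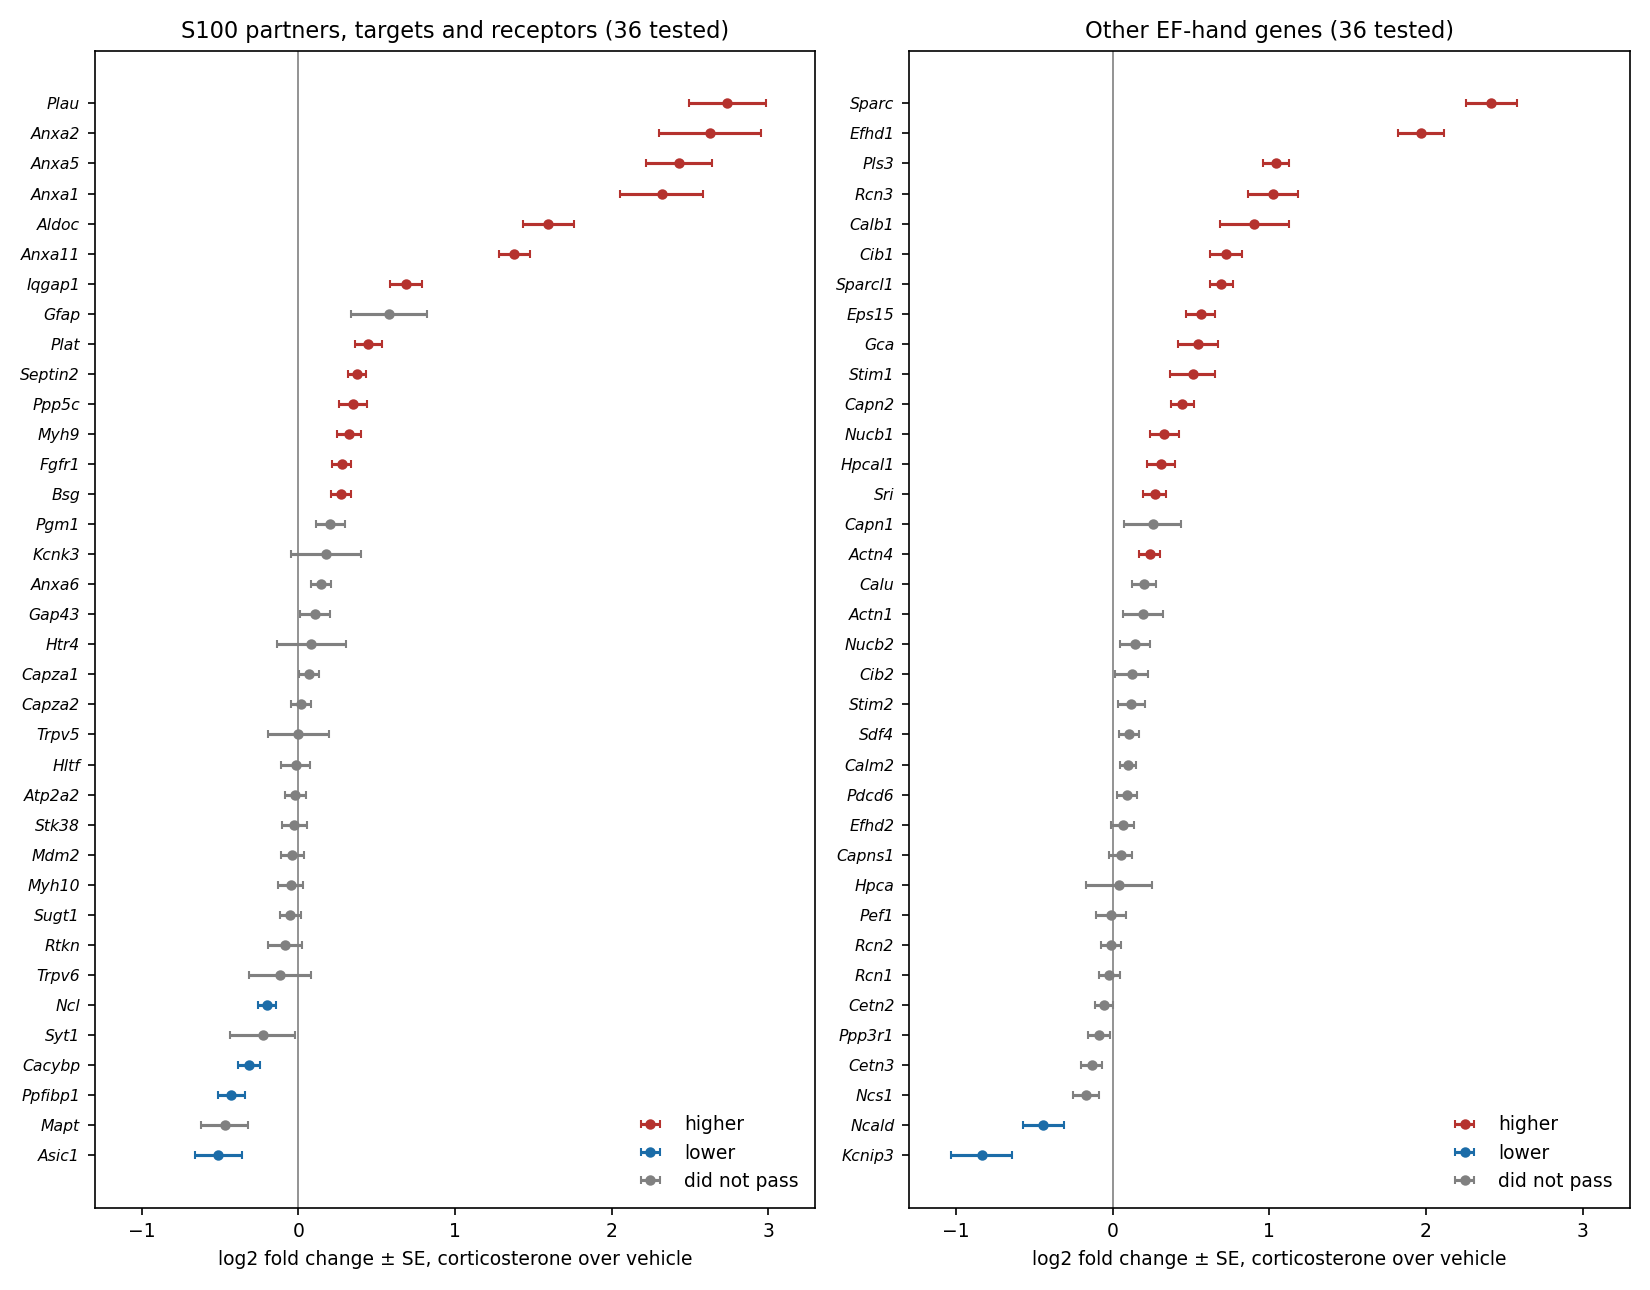
Log2 fold change ± SE of the 36 tested S100 partner genes (left) and the 36 tested EF-hand genes outside the family (right), coloured by limma call. Anxa2, Anxa5 and Anxa1 lie at 2.63, 2.43 and 2.32, the place of Plau depends on the pseudocount (1.71 at 100), Sparc and Efhd1 lead the other EF-hand genes, and 19 genes in each panel did not pass.

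The profile of S100a10 over the 6 arrays was most like that of Crip1, a LIM-domain gene (Pearson r = 0.999), followed by Rgs3 (0.998) and Sdcbp (0.994). S100b was most like Csrp1, Ap3b1 and Sec22b (each 0.996). For S100a11 the nearest were Spata13 (0.998), Akap13 (0.997) and Gstt3 (0.996), and for S100a4 Spata13 (0.997), Acot1 (0.995) and Tbc1d1 (0.995). S100a6, whose vehicle array of couple 3 was below background, was nearest to Scg2, secretogranin II (0.995), Macf1 (0.992) and Furin (0.991). Sdcbp, Macf1 and Furin had no call for treatment, with log2 fold changes of 0.16, 0.12 and 0.28. Among the members, S100a4 and S100a11 had a correlation of 0.994 and S100a10 and S100b one of 0.991, whereas S100a6 and S100b had 0.664. All such values rest on 6 arrays that share treatment and couple, and they are descriptions chosen as the highest of 9910 genes.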

How the data were processed

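The deposited table holds 1 signal intensity per probe set and array, which the authors made with MAS5, per the submitters' processing notes. Version, detection calls and build were not given in the sources used here. Members and lists were chosen with earlier results of these data known.

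Control probe sets (57) were left out. Signals were transformed to log2(signal + 28.6), the pseudocount being the 25th percentile of all values, so changes of dim genes are understated. The dimmest 40% (mean below a signal of 63.6) were dropped, leaving 18625. The model in limma 3.58.1 (R 4.3.3, lmFit and trended eBayes) held treatment and couple, and tests were two-sided. Benjamini-Hochberg adjustment ran over those probe sets at a threshold of 0.05, and the F test of the couple term comes from the same fit. The brightest tested probe set stood for a gene. The fit was tested on simulated data. The small number of arrays limits precision.

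The series text pairs the samples, and deviations of same-numbered arrays from their group means correlated by 0.569, 0.518 and 0.353, so the couple is a term. Named genes are all S100 genes on the platform, up to 8 called partners or EF-hand genes per direction by size of change, partners of described members, the 3 genes most correlated with 5 members, and RefSeq neighbours. Promoter windows and gene order come from RefSeq (GRCr8).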

Additional observations from a re-analysis of the deposited data

How the results depend on the processing

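The count of S100 members called for treatment, 6 of 7, stayed within 1.5 times under each alternative, at 4 without the replicate block (S100a10, S100a11, S100a4 and S100b), 4 to 7 when one couple was left out, and 4 of 5 tested when the lowest 60% of probe sets were dropped. Partners called (17) came to 5 without the replicate block, 8 without the intensity trend and 9 to 13 with one couple left out. EF-hand genes called (17) came to 5 without the replicate block, 8 with no filter, 7 without the trend and 10 to 16 with one couple left out. Of all genes tested, 19.5% were called for treatment in the main fit, 3% without the block, 8.71% with no filter and 8.06% without the trend. With the lowest 60% dropped it was 21.1%, and without couples 1, 2 and 3 it was 11.6%, 8.03% and 18.4%. Members called for the couple (3) came to 1 with no filter (S100a6) and 0 to 3 with one couple left out. Of all genes 4.05% passed for the couple with no filter, and 5.33%, 5.88% and 14.7% without couples 1, 2 and 3. Without the trend limma called 0 for the couple, with 2 at an unadjusted p under 0.05, when 0.262% of all genes passed. No member reversed. Of the 73 tested S100, partner and EF-hand genes outside the members 21 changed sign in at least 1 setting, 0 of them called by limma, and 10 did so with arrays centred on their medians. Low MAS5 signals limit S100a6, S100a8 and S100a9, dim vehicle arrays limit the size of change of S100a4 and S100a11, and 3 couples limit every value. The causes of these shifts were not tested.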
